A study of Homo sapiens with 6 samples.

Results

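The genes described here are those of WNT signalling at the cell surface: the WNT ligands, the frizzled receptors, the co-receptors LRP5 and LRP6, the alternative receptors ROR1, ROR2 and RYK, and the secreted antagonists of the SFRP and DKK families. They were taken by symbol from the deposited table, which gave 42 of 60835 distinct symbols: 19 ligands, 10 frizzled receptors, 5 co-receptors and alternative receptors, and 8 antagonists. RNA came from PANC-1, an established human line of pancreatic epithelioid carcinoma. In every sample SMAD4 had been knocked out and the cells were then transfected with SMAD4 carrying the R272K change, an arginine replaced by a lysine (R272K, 3 libraries), or with wild-type SMAD4 (WT, 3 libraries), and were taken on day 3. No source used here gives the construct, its promoter or the number of knockout clones, and knockout cells without added SMAD4 were not analysed here. Nothing in the labels ties the replicates to separate cultures, so the spread behind each p-value is that of these libraries and may be technical.

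WNT proteins are lipid-modified secreted ligands that bind frizzled receptors. Together with LRP5 or LRP6 this stabilises β-catenin, which acts with TCF and LEF factors on target genes. ROR1, ROR2 and RYK can take WNT signals along routes that do not need β-catenin. SFRP proteins bind WNT ligands outside the cell, and DKK1 blocks LRP5 and LRP6. SMAD4, the shared partner of receptor-regulated SMADs, carries TGF-β and BMP signals, which meet WNT signalling at several shared target genes. The comparison asks whether the transcripts of this ligand and receptor layer differ with the form of SMAD4 that the cells carry.

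Total counts per library were between 14776148 and 17706201. SMAD4 itself stood at 43.3 ± 2.56 CPM (counts scaled per library by its TMM-adjusted total) in R272K libraries and 88.7 ± 5.13 CPM in WT libraries (SD, n = 3 each), so the form of SMAD4 and its transcript level cannot be told apart in what follows. Counts per symbol do not separate transcript of the knocked-out gene from that of the added SMAD4. PRMT1, an arginine methyltransferase gene, averaged 175 ± 6.78 CPM in R272K and 175 ± 19.8 CPM in WT libraries. WT replicate 1 stood apart from the other libraries, at 31.3 on the first principal component against -15.6 to 9.56. Its log ratio to the mean of the other WT libraries was lower for longer genes (Spearman's rho of -0.41 over 15911 genes; genes are not independent). The same rho was 0.23 and 0.32 for WT replicates 2 and 3, whose group includes WT replicate 1, and -0.11 to 0.08 for the R272K libraries. TPM here is the authors' length-scaled abundance, rescaled to sum to 1000000 per library over distinct symbols. The epithelial marker list (KRT7, KRT8, KRT18, KRT19 and EPCAM) stands for the labelled cell type. It summed to 4714 to 5185 TPM in R272K libraries and 3935 to 4445 TPM in WT libraries. Of that list KRT7 and EPCAM were low, at 5.5 to 10.7 TPM and 6.44 to 10.5 TPM over all libraries. Marker lists of acinar, endocrine, endothelial and immune cells each summed to under 2 TPM in every library. A fibroblast list reached 9.29 to 10.6 TPM in R272K libraries and 6.37 to 9.13 TPM in WT libraries, most of it COL3A1, with DCN at 0.122 TPM or less. These are bulk libraries, in which fewer cells of a type and less RNA per cell cannot be told apart.

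Both the ligands and the receptors of the pathway were transcribed in these cells, but each role was dominated by 1 gene. WNT7B held 48.6% to 51.9% of the summed ligand TPM, FZD6 48.0% to 52.6% of the frizzled sum, LRP5 54.6% to 58.1% of the co-receptor and alternative receptor sum, and DKK1 65.3% to 70.5% of the antagonist sum over the 6 libraries. No member was called different between R272K and WT cells. Of the 42 members, 27 had enough counts to be tested and 15 did not. At an adjusted p below 0.05 by edgeR's quasi-likelihood test 0 of the 27 were higher and 0 lower in R272K cells, against 0.685% of all 15911 genes tested that were higher and 0.528% that were lower (1.21%, or 193 genes, in all). The ligand WNT9A, the receptor FZD1 and the antagonist family member DKK3 had the smallest p-values, with adjusted p of 0.0610, 0.0964 and 0.0984 by the same test. DESeq2 called 1 member, WNT9A (adjusted p = 0.038), against 2.01% of the 13751 genes to which it gave an adjusted p. With limma-voom 0 members were called, against 1.23% of all genes.

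The sequence before the start site is shown for the members with the smallest p-values, which lie in opposite directions, WNT9A lower and FZD1 higher in R272K cells. DKK3, next by p, had no entry in the promoter table. Each run is the 250 bases before the RefSeq start on build GRCh38.p14, written 5′ to 3′ along the gene, and capitals mark CAGAC or its reverse complement GTCTG, the short SMAD box. WNT9A is read from chr1:227947933.0-227948182.0 on the minus strand, and FZD1 from chr7:91264183.0-91264432.0 on the plus strand.
WNT9A: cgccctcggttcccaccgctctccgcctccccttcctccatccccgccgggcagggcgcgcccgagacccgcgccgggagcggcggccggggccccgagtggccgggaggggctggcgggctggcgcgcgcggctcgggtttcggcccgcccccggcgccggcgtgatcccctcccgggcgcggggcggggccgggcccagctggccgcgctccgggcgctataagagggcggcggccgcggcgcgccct
FZD1: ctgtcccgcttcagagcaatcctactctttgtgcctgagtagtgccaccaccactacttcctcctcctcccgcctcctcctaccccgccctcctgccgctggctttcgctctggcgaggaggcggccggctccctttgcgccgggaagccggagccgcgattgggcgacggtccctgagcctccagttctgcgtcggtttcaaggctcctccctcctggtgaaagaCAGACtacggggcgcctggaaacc
The FZD1 run held 1 SMAD box, beginning 24 bases before the start, and the WNT9A run held 0. The GC content was 84.4% for WNT9A and 65.2% for FZD1, against a median of 58% over 35116 promoters of the same length. WNT9A held 44 CG dinucleotides against a median of 11. High GC content was common among the members: LRP5 reached 87.2% with 43 CG dinucleotides and WNT4 86.8% with 40. Of the members with an entry, only SFRP2, WNT5A, WNT5B, WNT8A and WNT8B lay below 58%, at 45.2% to 57.6%. A SMAD box was found in 13 of the 29 members with an entry (44.8%) and in 38% of all promoters. The letters CTTTGA or TCAAAG, the core of TCF and LEF motifs, were found in 1 of the 29, DKK1 (3.45%), and in 11.2% of all promoters. These matches describe letters in a window and not binding.

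Among the ligands, the ranges of neighbours in TPM over the 6 libraries did not overlap at the top of the order, while several did below. WNT7B, a ligand known to act through β-catenin, averaged 171 ± 14.96 TPM in R272K libraries and 181 ± 10.7 TPM in WT libraries (SD, n = 3 each). WNT9A followed at 74.2 ± 2.16 TPM in R272K and 87.6 ± 5.04 TPM in WT libraries. Then came WNT5B, a relative of the non-canonical ligand WNT5A, at 32.3 to 39.0 TPM over all libraries, and WNT4, a ligand known from kidney and gonad development, at 24.1 to 31.5 TPM. The ranges of these 4 ligands did not overlap each other, though WNT5B and WNT4 came close (32.3 TPM at the lowest against 31.5 TPM at the highest). WNT10B (7.40 to 9.63 TPM) overlapped WNT3 (6.14 to 8.52 TPM), and WNT11 (2.93 to 6.06 TPM), WNT10A (2.39 to 4.75 TPM) and WNT5A (1.66 to 2.94 TPM) overlapped as neighbours. WNT2B, the last of the 10 tested ligands, lay at 0.746 to 1.45 TPM.

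The other 9 ligands had too few counts for the test, with 0 to 42 counts summed over the 6 libraries. WNT6 had 18 counts in the R272K libraries together and 24 in the WT libraries, and WNT16 had 10 and 11 in the same order. WNT8B had 2 counts in R272K and 10 in WT libraries. WNT3A, often used as the standard β-catenin-activating ligand in culture, had 2 counts in R272K and 4 in WT libraries. WNT1, WNT7A and WNT9B had 4, 4 and 5 counts in R272K libraries and 1, 5 and 1 in WT libraries. WNT2 had 0 in R272K and 1 in WT libraries. WNT8A had 0 counts in all 6, which allows up to 3 counts, or 0.203 CPM, in the shallowest library. That limit covers counting error only.

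**Figure D1:**
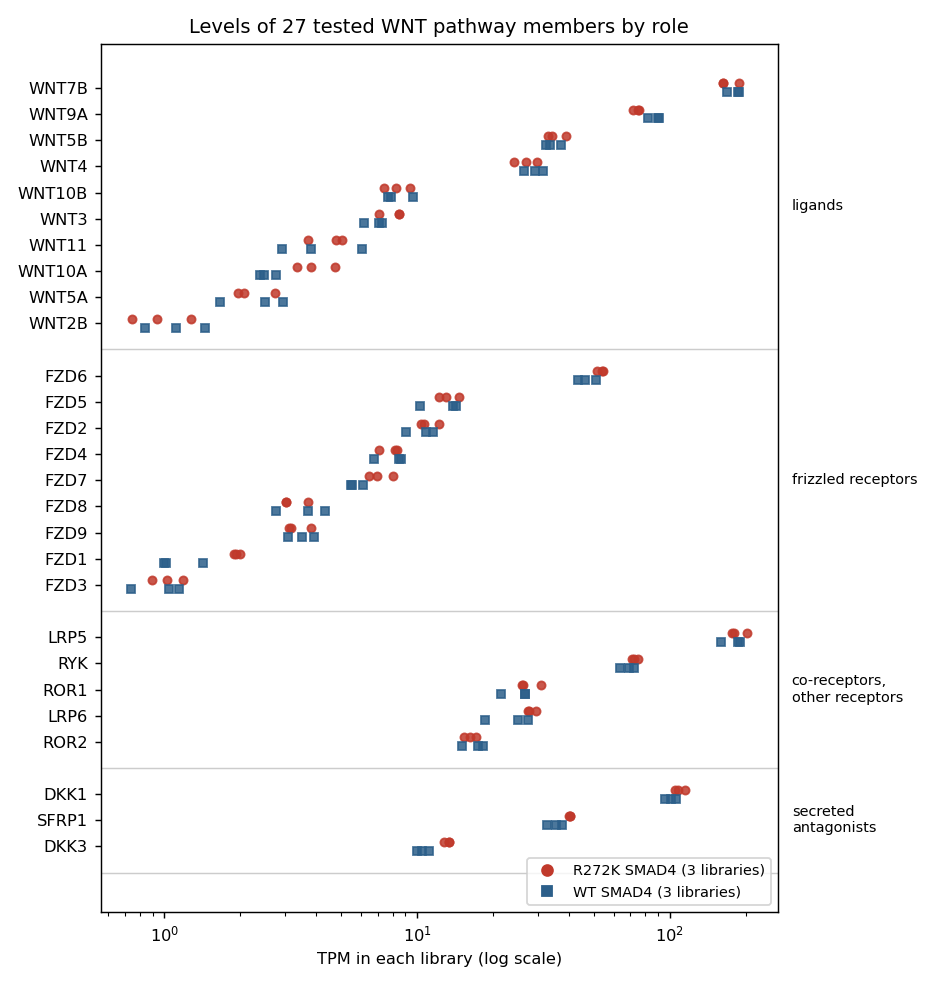
TPM in each library (log axis) for the 27 tested members, ordered by mean level within each role, with R272K libraries as circles above WT libraries as squares. WNT7B, FZD6, LRP5 and DKK1 lead their roles, and the circles and squares of most genes lie over the same range.

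Several human WNT genes lie next to each other in the genome, and in each such pair 1 gene held most of the counts. WNT9A on the minus strand and WNT3A on the plus strand of chromosome 1 lie 59065 bases apart (chr1:227918656-228061271), with 4305 and 2 counts in R272K libraries and 5369 and 4 in WT libraries. WNT3 and WNT9B, on opposite strands of chromosome 17 (chr17:46762506-46886730), are separated by 46 bases in the deposited coordinates. WNT3 had 396 counts in R272K and 359 in WT libraries, and WNT9B had 5 in R272K and 1 in WT libraries. WNT10B and WNT1, 6586 bases apart on chromosome 12, had 271 and 4 counts in R272K libraries and 288 and 1 in WT libraries. WNT10A and WNT6, 6618 bases apart on the same strand of chromosome 2, had 118 and 18 counts in R272K libraries and 81 and 24 in WT libraries. These coordinates are on GRCh38, and all 4 pairs were found by taking ligands at most 60000 bases apart.

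WNT9A had the smallest p of all members. It had 95.8, 92.1 and 95.2 CPM in R272K replicates 1 to 3, against 112, 114 and 113 CPM in WT replicates 1 to 3. Every R272K library lay below every WT library, and the replicates within a group were close. The means were 94.4 ± 1.99 CPM in R272K and 113 ± 1.11 CPM in WT libraries (SD, n = 3 each). The log2 fold change of R272K over WT was -0.26 (SE 0.0608, 95% interval -0.39 to -0.13), with an unadjusted p of 0.00092 and an adjusted p of 0.061 by edgeR's quasi-likelihood test. Across 18 other settings the log2 fold change stayed between -0.27 and -0.24, while the adjusted p ran from 0.000765 without WT replicate 1 to 0.469 on log2(TPM + 1) without a filter. Settings below 0.05 were DESeq2, no filter (0.0495), the length trend removed (0.00674) and the fit without WT replicate 1. In the last of these 5.36% of all genes were called, and with the length trend removed 3.89%.

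WNT10A, known from hair follicle and tooth development, was the other ligand with an unadjusted p below 0.05. Its levels were 2.49, 2.20 and 3.06 CPM in R272K and 1.94, 1.56 and 1.57 CPM in WT libraries. The groups did not overlap, but the gene had the fewest counts of any tested member, 199 in all. The log2 fold change was 0.61 (SE 0.238, 95% interval 0.09 to 1.12; unadjusted p = 0.0242 and adjusted p = 0.266 by edgeR).

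WNT7B, the leading ligand, had 205, 205 and 234 CPM in R272K and 227, 234 and 227 CPM in WT libraries. The groups overlapped through R272K replicate 3, and the log2 fold change was -0.09 with a 95% interval of -0.24 to 0.05 (edgeR adjusted p = 0.555). WNT5B had 24.4, 23.6 and 27.4 CPM in R272K and 28.4, 23.7 and 22.3 CPM in WT libraries, which overlapped throughout (0.01, 95% interval -0.21 to 0.24). WNT4 stood at -0.14, WNT3 at 0.21, WNT10B at -0.03, WNT5A at -0.07, WNT11 at 0.02 and WNT2B at -0.20 on the log2 scale of R272K over WT, with adjusted p of 0.527 or more by edgeR. For WNT2B, exons overlap those of ST7L on the opposite strand, and since the use of strand in counting is not given, its counts may hold reads of that gene.

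Among the frizzled receptors FZD6 led, with 53.3 ± 1.62 TPM in R272K and 47.0 ± 3.89 TPM in WT libraries (SD, n = 3 each). FZD5 (10.3 to 14.7 TPM over all libraries) and FZD2 (9.06 to 12.2 TPM) overlapped, as did FZD4 (6.78 to 8.63 TPM) and FZD7 (5.45 to 8.04 TPM). FZD8 (2.77 to 4.33 TPM) and FZD9 (3.08 to 3.92 TPM) overlapped too. FZD1 (0.993 to 1.99 TPM) and FZD3 (0.740 to 1.18 TPM) were the lowest tested, and their ranges overlapped. FZD10 had 1 count in R272K and 0 in WT libraries and was not tested.

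FZD1 had the largest log2 fold change of the tested members. Its levels were 4.13, 4.39 and 4.17 CPM in R272K replicates 1 to 3, against 2.34, 3.11 and 2.16 CPM in WT replicates 1 to 3. All R272K libraries lay above all WT libraries, and the WT libraries were the more spread. The log2 fold change was 0.74 (SE 0.195, 95% interval 0.32 to 1.16), a fold of 1.67, with an unadjusted p of 0.00216 and an adjusted p of 0.0964 by edgeR. The gene rested on 193 counts in R272K and 120 in WT libraries. No alternative called it: the adjusted p ranged from 0.0536 to 0.762 and the log2 fold change from 0.46 to 0.90 over 18 settings.

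FZD6 had 63.9, 61.4 and 63.7 CPM in R272K and 55.4, 54.6 and 59.0 CPM in WT libraries, groups that did not overlap by a small margin (0.16, SE 0.0679, edgeR adjusted p = 0.296). FZD7, a close relative of FZD1 and FZD2, had 11.8, 9.52 and 10.03 CPM in R272K and 9.58, 7.91 and 7.86 CPM in WT libraries, which overlapped between R272K replicate 2 and WT replicate 1 (0.30, SE 0.132, edgeR adjusted p = 0.325). FZD5, the second receptor by level, had 29.3, 27.6 and 32.4 CPM in R272K and 24.8, 30.9 and 31.0 CPM in WT libraries (0.05, 95% interval -0.17 to 0.27). FZD2 had 12.9, 12.5 and 14.5 CPM in R272K and 11.7, 13.8 and 12.6 CPM in WT libraries (0.07, 95% interval -0.17 to 0.31). In both the groups overlapped. FZD3, FZD4, FZD8 and FZD9 had log2 fold changes of 0.08, -0.03, -0.17 and -0.08. FZD4 exons overlap those of PRSS23 on the opposite strand, which had 13147 to 16970 counts per library against 252 to 300 for FZD4, so its level is uncertain. FZD6 and DKK1 overlap antisense genes (BAALC-AS1 and PRKG1-AS1) that had at most 29 and 23 counts per library.

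**Figure D2:**
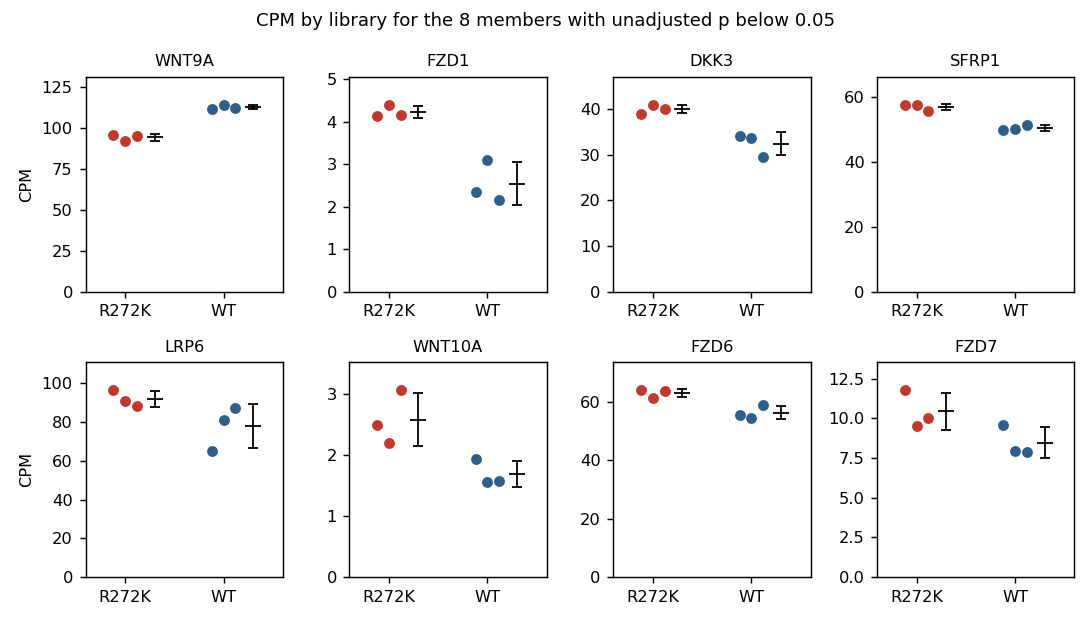
CPM in each library for the 8 members with an unadjusted p below 0.05, R272K left of WT, with a point per library and the mean ± SD beside the points; every axis starts at 0. WNT9A lies lower in R272K libraries, the other 7 lie higher on average, and the groups overlap for FZD7.

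LRP5, the co-receptor with most transcript, had 291, 299 and 330 CPM in R272K and 282, 312 and 298 CPM in WT libraries. The groups overlapped, and the log2 fold change was 0.05 (95% interval -0.10 to 0.19, edgeR adjusted p = 0.798). Per length it averaged 187 ± 14.4 TPM in R272K and 179 ± 16.8 TPM in WT libraries (SD, n = 3 each), above LRP6 in every library (27.5 to 29.5 TPM in R272K and 18.6 to 27.5 TPM in WT libraries). LRP6 had 96.4, 91.2 and 88.3 CPM in R272K and 65.1, 81.1 and 87.3 CPM in WT libraries, with WT replicate 1 the lowest of the 6. The groups did not overlap, by a margin of 88.3 to 87.3 CPM. Its log2 fold change was 0.24 (SE 0.0943, edgeR adjusted p = 0.261), and 0.13 (SE 0.0555, adjusted p = 0.206) without WT replicate 1.

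RYK, a receptor with a WNT-binding domain and an inactive kinase, was the second of these genes, at 71.04 to 75.03 TPM in R272K and 63.5 to 72.5 TPM in WT libraries. In CPM it had 126, 122 and 117 in R272K and 114, 115 and 118 in WT libraries, overlapping by 1 library of each group (0.08, 95% interval -0.06 to 0.21). ROR1, a receptor for WNT5A found in many tumours, had 49.0, 48.7 and 56.9 CPM in R272K and 42.9, 49.7 and 48.4 CPM in WT libraries (0.14, 95% interval -0.05 to 0.32). ROR2, its relative, stood at -0.08 (95% interval -0.27 to 0.10). The TPM ranges of ROR1 and LRP6 overlapped, and ROR2 lay at 15.1 to 18.2 TPM.

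Of the 8 antagonists 3 were tested, and 5 had 3 to 37 counts over the 6 libraries. DKK1, the LRP5 and LRP6 blocker and a textbook β-catenin target, averaged 109 ± 5.02 TPM in R272K and 101 ± 5.21 TPM in WT libraries (SD, n = 3 each). It had 60.7, 62.4 and 65.1 CPM in R272K and 65.6, 54.8 and 56.5 CPM in WT libraries, where WT replicate 1 was the highest of the 6 (0.09, 95% interval -0.08 to 0.26, edgeR adjusted p = 0.661). DKK3, a divergent family member that does not block LRP5 and LRP6 as DKK1 does, had 39.1, 40.9 and 40.1 CPM in R272K and 34.0, 33.7 and 29.6 CPM in WT libraries. The groups did not overlap, and the log2 fold change was 0.30 (SE 0.0799, 95% interval 0.13 to 0.47; unadjusted p = 0.00224 and adjusted p = 0.0984 by edgeR). Without WT replicate 1, where 5.36% of all genes were called, it was 0.34 (SE 0.0765, edgeR adjusted p = 0.00483). With the length trend removed it was 0.22 (adjusted p = 0.196).

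SFRP1, which binds WNT ligands and is often silenced in carcinomas, was the second antagonist by level. It had 57.6, 57.6 and 56.0 CPM in R272K and 49.9, 50.3 and 51.6 CPM in WT libraries. The groups did not overlap and each was tight, with means of 57.1 ± 0.947 CPM in R272K and 50.6 ± 0.869 CPM in WT libraries (SD, n = 3 each). The log2 fold change was 0.17 (SE 0.0665, edgeR adjusted p = 0.252), and no alternative brought its adjusted p below 0.132. DKK4 had 20 counts in R272K and 17 in WT libraries, SFRP5 11 and 10, SFRP4 6 and 3, DKK2 4 and 1, and SFRP2 3 and 0, in that order.

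Over the 27 tested members the median log2 fold change was 0.05, against -0.00 over all genes tested, and 17 lay above 0 and 10 below. An unadjusted p below 0.05 by edgeR was reached by 8 members, 7 higher and 1 lower in R272K cells. This was 29.6% of the 27 tested, against 14.3% of all genes, of which 1142 were higher and 1128 lower. None of the 8 was called after adjustment. The groups did not overlap for 7 members, 6 higher and 1 lower, which is 25.9% of the tested members, against 21.4% of all genes (10.9% higher and 10.4% lower). The 95% interval of the fold change lay within 1.5-fold either way for 22 of the 27, and within 2-fold for 25. Those outside 1.5-fold were WNT10A, WNT11, WNT2B, FZD1 and FZD8, with 199 to 416 counts each, and of these WNT10A and FZD1 reached beyond 2-fold. FZD3, FZD9 and WNT5A had counts in the same range and intervals within 1.5-fold. Intervals were narrow for well-covered genes such as LRP5, with 28089 counts over the 6 libraries.

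**Figure D3:**
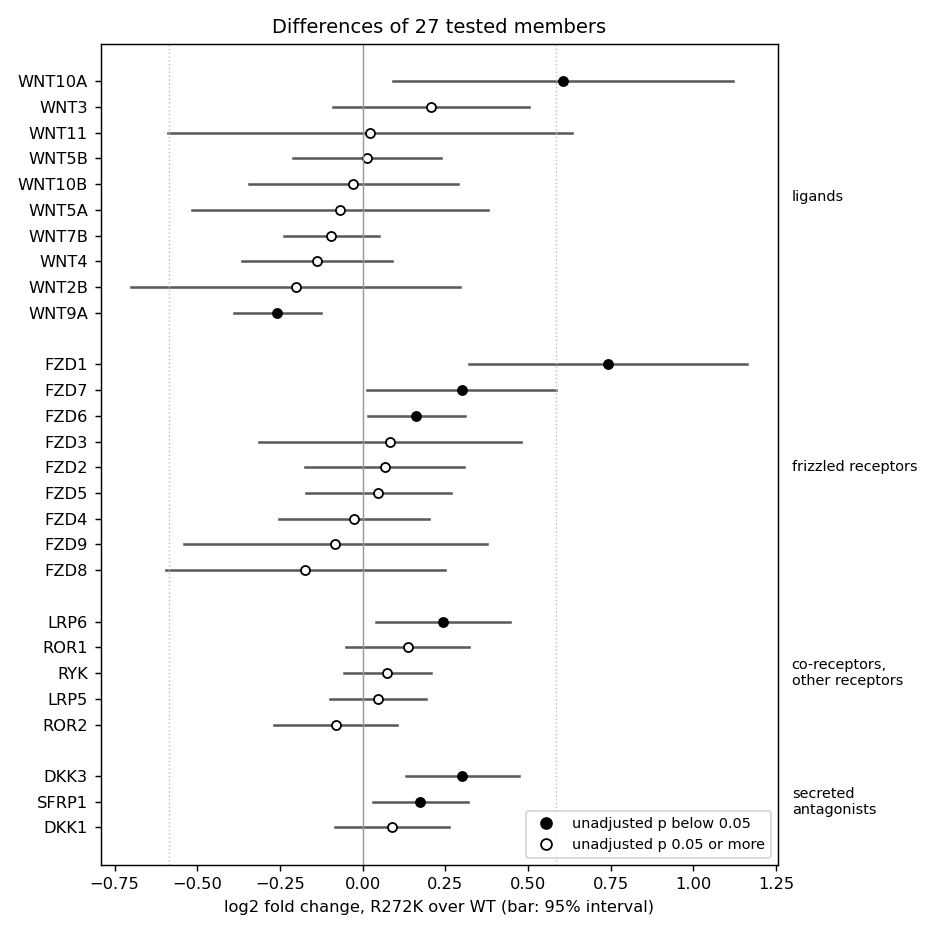
Log2 fold change of R272K over WT with its 95% interval for the 27 tested members, by role; filled points have an unadjusted p below 0.05 and dotted lines mark 1.5-fold either way. WNT9A (-0.26) is the filled point below 0, FZD1 (0.74) and WNT10A (0.61) lie farthest above 0 with wide intervals, and most intervals cross 0.

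The adjusted p of WNT9A, FZD1 and DKK3 depended on which libraries and which test were used. Leaving out any 1 R272K library put them between 0.245 and 0.372 by edgeR, where 0.337% to 0.367% of all genes were called. Leaving out WT replicate 1 brought WNT9A and DKK3 below 0.05, where 5.36% of all genes were called. Without WT replicate 2 the 3 genes lay between 0.111 and 0.212 (0.512% of all genes called). Without WT replicate 3 they lay between 0.0682 and 0.153 (1.69% of all genes called).

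**Figure D4:**
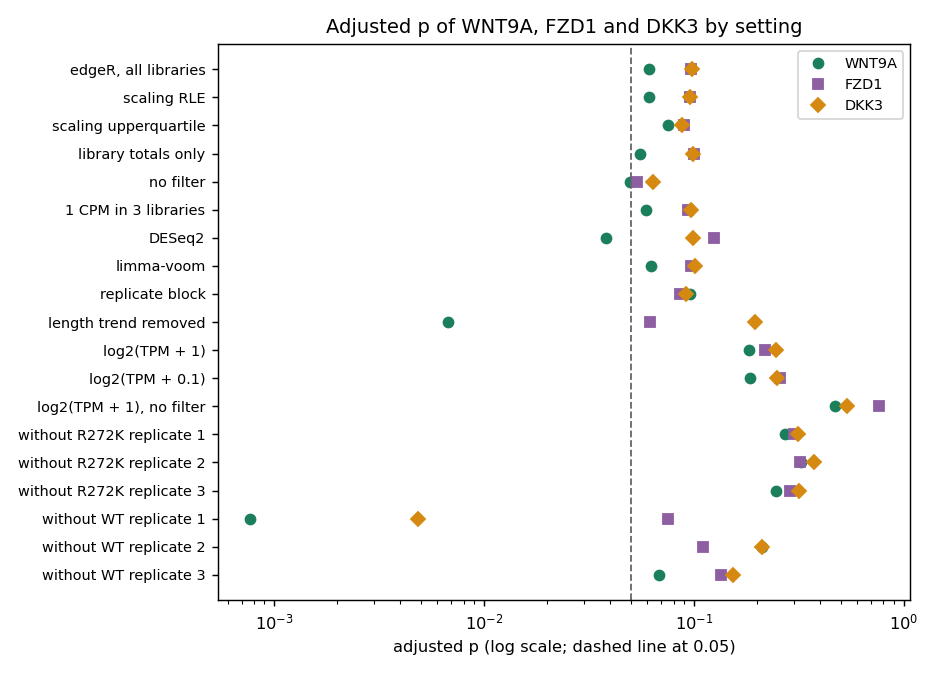
Adjusted p (log axis) of WNT9A, FZD1 and DKK3 under edgeR on all libraries and 18 other settings, with a dashed line at 0.05. WNT9A lies below the line in 4 settings, DKK3 in 1 and FZD1 in none; where symbols coincide, DKK3 lies on top of FZD1 and WNT9A.

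Genes that act beside the ligands and receptors were also taken from lists of the pathway, and none of them was called by edgeR on all libraries. Of all genes tested 1.21% were called, a share at which lists of this size would hold few or no calls. Of 33 genes for WNT secretion and regulation at the cell surface 16 were tested, with 0 higher and 0 lower and a median log2 fold change of 0.11. WLS, which carries WNT proteins to the surface, averaged 124 ± 4.39 CPM in R272K and 131 ± 5.16 CPM in WT libraries, and PORCN, the enzyme that attaches their lipid, 8.09 ± 0.218 and 8.14 ± 0.962 CPM in the same order (SD, n = 3 each). The 4 with the smallest p were PTK7, a co-receptor in planar polarity (0.18, adjusted p = 0.226), KREMEN1, a DKK1 receptor (0.37, adjusted p = 0.233), DRAXIN, a secreted antagonist (-0.33, adjusted p = 0.282), and DKKL1 (0.80, adjusted p = 0.329). DKKL1 was low, at 1.36 ± 0.487 CPM in R272K and 0.782 ± 0.121 CPM in WT libraries, and its groups overlapped. Of the R-spondin receptors LGR4 averaged 126 ± 3.34 CPM in R272K and 117 ± 13.4 CPM in WT libraries, while LGR5 averaged 0.307 and 0.152 CPM and was not tested.

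All 34 listed components of the β-catenin route were tested, with 0 calls and a median of 0.04, and 24 lay above 0 and 10 below. CTNNB1, which encodes β-catenin, averaged 459 ± 13.7 CPM in R272K and 425 ± 17.1 CPM in WT libraries (0.11, edgeR adjusted p = 0.429). The 4 with the smallest p were the casein kinase genes CSNK1D (-0.18, adjusted p = 0.205) and CSNK1E (-0.17, adjusted p = 0.248), the signal transducer DVL1 (-0.17, adjusted p = 0.279) and the kinase gene GSK3A (-0.19, adjusted p = 0.284). Of 26 target genes of β-catenin and TCF 21 were tested, with 0 calls and a median of -0.00. AXIN2, the feedback inhibitor often read as a report of the pathway, had 10.96, 10.9 and 11.7 CPM in R272K and 8.90, 10.1 and 9.89 CPM in WT libraries. These groups did not overlap, and its log2 fold change was 0.22 (SE 0.112, edgeR adjusted p = 0.409). Smaller p-values belonged to FOSL1, an AP-1 subunit (-0.27, adjusted p = 0.0599), the ephrin receptor EPHB2 (-0.19, adjusted p = 0.164), the protease MMP7 (0.97, adjusted p = 0.174) and the transcription factor PROX1 (0.51, adjusted p = 0.242). FOSL1 answers to many other pathways as well, and DESeq2 called it lower (adjusted p = 0.0203). LEF1, NKD2 and CCND1, also on the target list, stood at -0.26, 0.03 and -0.05.

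For planar polarity and other routes without β-catenin, 21 of 23 listed genes were tested, with 0 calls and a median of 0.09. Of the 21 tested, 15 lay above 0 and 6 below, and the 4 with the smallest p all lay above 0. CELSR2, an atypical cadherin of planar polarity, averaged 19.4 ± 1.401 CPM in R272K and 14.1 ± 3.29 CPM in WT libraries (0.46, edgeR adjusted p = 0.16). The others were the phospholipase gene PLCB1 (0.51, adjusted p = 0.208), the core polarity gene VANGL1 (0.26, adjusted p = 0.211) and the kinase gene CAMK2D (0.16, adjusted p = 0.344). CELSR2 was at 10.5 CPM in WT replicate 1, the lowest of the 6 libraries, against 16.9 and 15 CPM in WT replicates 2 and 3. PLCB1, VANGL1 and CAMK2D were also lowest in WT replicate 1, at 3.193, 27.1 and 87.0 CPM. For PLCB1, WT replicate 3 was close, at 3.21 CPM. Over the 4 lists, DESeq2 called 1 gene, FOSL1, against 2.01% of the genes to which it gave an adjusted p. With limma-voom 0 were called, against 1.23% of all genes.

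**Figure D5:**
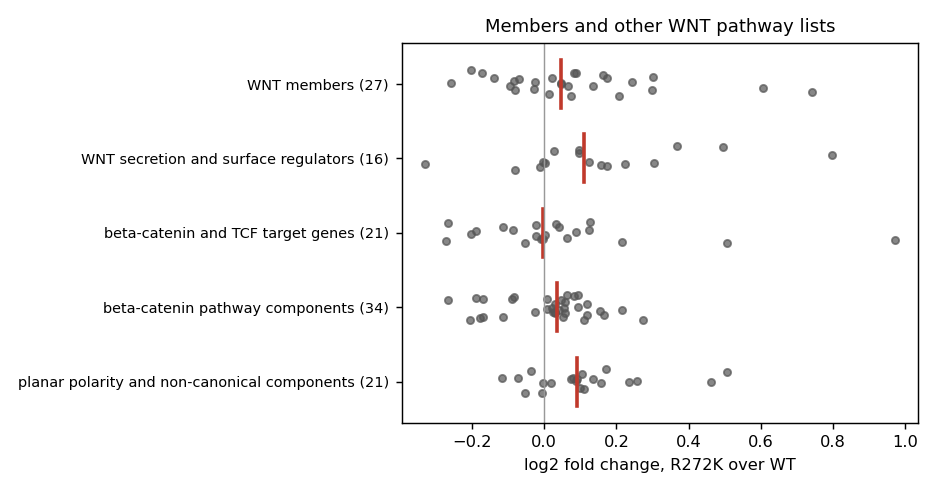
Log2 fold change of R272K over WT for each tested gene of the WNT members and of 4 other WNT pathway lists (number tested in brackets), with the list median as a red line; some genes belong to several lists. The medians lie between -0.00 and 0.11, and none of the genes shown was called by edgeR on all 6 libraries, against 1.21% of all genes tested.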

How the data were processed

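The submitters' processing notes name build GRCh38 and list HTSeq 0.10.0, HISAT2 2.1.0, fastp 0.23.0 and SAMtools; no source used here states the settings, the use of strand or the annotation release. Raw read counts per symbol were deposited, and a second deposited table held TPM, a length-scaled signal. As 62710 lines held 60835 symbols, each symbol was used once. TPM, which summed to 1296446 to 1472074 as deposited, was then rescaled to sum to 1000000 per library. Exon overlaps came from GENCODE release 29 and promoters from RefSeq.

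edgeR's expression filter (minimum count 10, minimum total 15) left 15911 genes. TMM-scaled counts entered its robust quasi-likelihood test (two-sided, no term but group), with Benjamini-Hochberg adjustment across every tested gene and calls below 0.05. The SE is the log2 fold change divided by the square root of F, and 95% intervals use that test's total degrees of freedom (residual plus prior).

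The members, lists and alternatives were chosen with earlier results of these data known. All members are named, with library values where the unadjusted p was below 0.05 and for the 3 of highest TPM per role; of each other list the 4 of smallest p are named, and further listed genes were chosen after their values were seen. Every pair of replicates differed by more than sampling noise (chi-square over degrees of freedom at least 1.83). This ratio was 11.3 and 15.6 for WT replicate 1 against WT replicates 2 and 3, and 1.83 to 2.93 for the other pairs. Alternatives were RLE, upper-quartile or library-total scaling, no filter or 1 CPM in 3 libraries, DESeq2, limma-voom, a replicate block, a length trend removed by lowess (span 0.3), limma on log2(TPM + 1) or log2(TPM + 0.1), and each library left out. Software was Python 3.11.15 (numpy 2.4.6, pandas 2.3.3, scipy 1.17.1, matplotlib 3.10.9) and R 4.3.3 (DESeq2 1.42.0, limma 3.58.1, edgeR 4.0.16).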

Additional observations from a re-analysis of the deposited data

How the results depend on the processing

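Of the 27 tested members, 18 kept the direction of their log2 fold change under all 18 alternatives and 25 were called under none. WNT9A was called lower under 4 of them: DESeq2, no filter, the length trend removed, and without WT replicate 1, each giving 1 member called lower; without WT replicate 1 DKK3 was also called, the 1 member called higher, so that leaving out a library gave 0 to 1 in each direction. The 9 members whose direction reversed had log2 fold changes between -0.07 and 0.08. With the length trend removed FZD3 was -0.0014 and WNT10B 0.0109. With 1 library left out the log2 fold change was -0.0001 to 0.1251 for FZD2, -0.0550 to 0.1794 for FZD3, -0.0944 to 0.0523 for FZD4, -0.0552 to 0.1003 for FZD5, -0.0087 to 0.0837 for LRP5, -0.1084 to 0.0442 for WNT10B, -0.1970 to 0.4451 for WNT11, -0.2473 to 0.1023 for WNT5A and -0.0602 to 0.1250 for WNT5B. Of the 18 that kept direction, 10 moved by over 1.5 times when 1 library was left out: WNT2B ran from -0.44 to -0.03, WNT4 from -0.23 to -0.03, WNT7B from -0.16 to -0.06, WNT3 from 0.12 to 0.30, FZD8 from -0.35 to -0.05, FZD9 from -0.19 to -0.02, LRP6 from 0.13 to 0.33, ROR1 from 0.06 to 0.18, ROR2 from -0.12 to -0.04 and DKK1 from 0.03 to 0.17. The count of all genes called, 193, was 474 with no filter, 619 with the length trend removed, 104 and 101 on log2(TPM + 1) and log2(TPM + 0.1), 37 on log2(TPM + 1) with no filter, and 55 to 875 with 1 library left out (875 without WT replicate 1, 84 without WT replicate 2, 59, 60 and 55 without R272K replicates 1, 2 and 3). With no filter 41 members were tested. With 1 library left out the groups of 7 to 11 of the 27 members did not overlap (25.9% to 40.7%), against 29% to 35.3% of all genes in the same comparisons of 2 libraries with 3; the 11 (40.7%) came without R272K replicate 3, against 30.4% of all genes. In the other lists, FOSL1 gave 1 call among target genes with library totals only, no filter, DESeq2, the length trend removed or without WT replicate 3, and with EPHB2 2 calls without WT replicate 1, a range of 0 to 2. CSNK1D gave 1 call among β-catenin components with the length trend removed or without WT replicate 1 (0 to 1), and CELSR2 gave 1 among polarity genes with no filter or the length trend removed. The cause was not tested for any of these. With the replicate number as a block 262 genes and 0 members were called. Same-numbered libraries of the groups did not deviate together (r = -0.07, -0.01 and -0.01 for replicates 1 to 3). With 3 libraries per group this cannot show whether they were prepared together, and the labels do not say. The 15 members with 0 to 42 counts in all did not pass the filter on low counts, and differences in them were tested only where that filter was dropped.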
